A study of Mus musculus with 11 samples.

Results

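Dermatopontin (Dpt), peptidase inhibitor 16 (Pi16), microfibril-associated protein 5 (Mfap5), fibulins 1 and 2 (Fbln1, Fbln2), Thy1, periostin (Postn), fibronectin (Fn1), Sparc and matrix Gla protein (Mgp) are genes of fibroblasts and of the glycoproteins they lay into the extracellular matrix. These 10 genes were chosen by name, and every probe set that the array's annotation assigned to a single one of these symbols was described. They had 18 of the 45101 probe sets and were 10 of 18193 named genes. Of the 18, 16 lay above the array median on at least 2 arrays and were tested. The untested ones were Pi16 1422026_at and Fbln2 1438375_at, whose group means ran from 4.09 to 4.60 and from 2.96 to 4.73.

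The arrays compared progenitor lines of ICC (interstitial cells of Cajal), the Kit-expressing pacemaker cells of the gut, with gastric tunica muscularis, the muscle layers of the stomach. The C57BL/6J line (2xSCS2F10, 3 arrays) came from C57BL/6J mice and was grown at 37 °C in NeuroCult neural stem cell medium with 5% chick embryo extract. Its counterpart, the tsA58 line (2xSCS70, 3 arrays), is from transgenic H-2Kb-tsA58 mice. An interferon-inducible promoter drives a thermolabile large T antigen of SV40 in them. It was grown at 39.5 °C without interferon-gamma, and no extract is named for it. Stomach muscle of C57BL/6J mice (2 arrays) and of H-2Kb-tsA58 mice (3 arrays) was the tissue of origin, and no drug treatment or age is given. Each line is 1 clone, so a difference between a line and its tissue, or between the lines, is also a difference of that clone. Culture temperature, extract, mouse strain, transgene and clone differ together between the lines and cannot be told apart. Between the tissues, mouse strain, transgene and any difference in dissection or array handling cannot be told apart either. The labels call the arrays of a group biological replicates, but nothing says that they came from separate cultures or animals, so p-values measure only the spread between these samples, which may be technical.

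In connective tissue, fibroblasts secrete a fibronectin scaffold, which cells assemble through integrins, and onto which collagens and elastic fibres are built. Dermatopontin and periostin bind collagen fibrils, fibulin 1 and fibulin 2 join fibronectin, laminins and elastic fibres, and Mfap5 decorates fibrillin microfibrils. Sparc binds collagen and calcium, and Mgp, a vitamin K-dependent protein, restrains calcification of soft tissue. Pi16 and Thy1 are surface markers of fibroblasts, and Thy1 is also carried by neurons and, in mice, by T cells.

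Levels below are log2 intensities, and a difference of 1 is a 2-fold change. The array median, between 4.66 and 4.84, stands for background, since no detection calls were given. A level near or below it is a bound, so fold changes down to it are too small. A probe set was called when limma's Benjamini-Hochberg adjusted p over all 26903 probe sets of a comparison was under 0.05 and the change at least 2-fold. Levels of different probe sets are not compared. Replicate arrays of a group correlated at 0.956 to 0.991. Hybridisation control spots, added in equal amounts, averaged 9.33 to 9.90 in the C57BL/6J and 7.93 to 8.26 in the tsA58 line, and 10.77 to 10.96 and 7.52 to 9.66 in the tissues of those strains.

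Markers of the labelled cells and tissue were read first. Kit was below the array median on all 6 line arrays (3.16 to 3.87) and at 6.83 to 8.61 in tissue. Of 5 ICC progenitor genes, Kit among them, 4 were above the array median on all arrays of each line. Cd44 averaged 10.81 and 11.13, and Cd34 9.05 and 10.57, in the C57BL/6J and tsA58 lines. The smooth muscle genes Actg2 and Myh11 averaged 3.37 to 4.27 in the lines and 12.18 to 12.99 in tissue. Not all smooth muscle genes were that low in the lines. Of 8, 5 in the C57BL/6J line and 4 in the tsA58 line were above the array median on all its arrays. Acta2 averaged 11.41 and 10.94 in these lines, against 13.27 and 13.69 in their tissues. The tissue arrays also held gastric epithelium genes (list mean 10.12 to 11.66), and C57BL/6J tissue replicate 1 and tsA58 tissue replicate 2 held pancreatic genes (10.88 and 9.89 against 4.78 to 5.74 on the other tissue arrays).

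Replicate 3 of the tsA58 line stood apart. The mean of 6 mesothelium genes was 10.24 there, against 7.74 and 6.64 in replicates 1 and 2 and 10.16 to 10.81 in the C57BL/6J line. Upk3b, a mesothelial uroplakin, was 8.80, 7.85 and 12.43 in the 3 tsA58 line arrays. Lrrn4, another mesothelial gene, was 4.14, 2.97 and 8.79. Results of the tsA58 line are therefore given with and without this array where it matters, and its part in them was otherwise not tested.

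Promoters of 6 of the 10 genes were in the RefSeq table of build GRCm38.p6. Mfap5, Thy1, Fn1 and Mgp were not matched. The 4 windows shown are those of genes low in both lines (Dpt, Postn, Fbln1) and of Fbln2, which was high in both, each 250 bases long and ending at the base before the start site. Capitals mark matches on either strand to 6 motifs, none of which overlapped another. The AP-1 motif was searched as TGANTCA, that of the TEAD factors as CATTCC, and the E-box of helix-loop-helix factors as CANNTG. The TATA box was searched as TATAAA, the CCAAT box by its name, and the GC box of Sp1 as GGGCGG.
Dpt promoter, chr1:164796413-164796662, plus strand: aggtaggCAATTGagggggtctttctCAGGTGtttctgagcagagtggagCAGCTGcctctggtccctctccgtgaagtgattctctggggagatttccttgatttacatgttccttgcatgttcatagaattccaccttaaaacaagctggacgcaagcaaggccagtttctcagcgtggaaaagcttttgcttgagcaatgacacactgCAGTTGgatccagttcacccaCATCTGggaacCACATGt
Postn promoter, chr3:54360857-54361106, plus strand: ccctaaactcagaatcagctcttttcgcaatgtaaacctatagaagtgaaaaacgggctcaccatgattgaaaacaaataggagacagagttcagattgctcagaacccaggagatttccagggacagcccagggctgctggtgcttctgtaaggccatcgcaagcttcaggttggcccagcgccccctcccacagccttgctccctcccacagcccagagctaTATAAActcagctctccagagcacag
Fbln1 promoter, chr15:85205758-85206007, plus strand: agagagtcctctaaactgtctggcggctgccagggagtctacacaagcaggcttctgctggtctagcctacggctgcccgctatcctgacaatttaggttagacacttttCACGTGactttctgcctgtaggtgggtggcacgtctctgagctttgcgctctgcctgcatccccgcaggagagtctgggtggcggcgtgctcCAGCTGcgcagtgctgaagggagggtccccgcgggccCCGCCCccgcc
Fbln2 promoter, chr6:91212514-91212763, plus strand: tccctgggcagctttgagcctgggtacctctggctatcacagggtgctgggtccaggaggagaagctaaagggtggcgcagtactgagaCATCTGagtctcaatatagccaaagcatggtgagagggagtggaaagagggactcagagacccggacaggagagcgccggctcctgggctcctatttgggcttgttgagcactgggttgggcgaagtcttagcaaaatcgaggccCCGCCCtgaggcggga
The Dpt window held 6 CANNTG matches, as did or exceeded 0.274% of the 32851 promoters of the table, while 66.2% held at least 1. The Postn window held TATAAA, which 12.4% of promoters hold, 26 bases before the start. A second Postn start, with its window at chr3:54359017-54359266, held none of the 6 motifs. The Fbln1 and Fbln2 windows each held GGGCGG close to the start, at 11 and 16 bases, and 32.7% of promoters hold it. A second Fbln1 window, at chr15:85205699-85205948, held no GGGCGG and 1 CANNTG. Neither TGANTCA (6.75% of promoters) nor CATTCC (12.6%) occurred in any of the 8 windows of the 6 genes. These matches are letters in a window and say nothing of binding.

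Against their tissues, both lines had lower levels of Dpt, Mfap5, Postn, Fbln1 and Thy1, and higher levels of fibronectin and fibulin 2. Pi16 was lower in the tsA58 line (-3.97) and, by a call that 8 of 23 alternatives ended, in the C57BL/6J line (-1.29). In the C57BL/6J line 11 of 16 probe sets were called, 3 higher and 8 lower, where 34.1% of all tested probe sets were called (17.8% higher and 16.3% lower). In the tsA58 line 12 of 16 were called, 3 higher and 9 lower, against 30.5% of all (14.6% higher and 15.9% lower). With the probe set of highest mean standing for each gene, the C57BL/6J line had 2 genes higher and 6 lower, and the tsA58 line 2 higher and 7 lower, where 34.2% and 31.7% of all genes were called. The median over the 10 genes was -1.91 and -5.54, and over all 13285 genes it was 0.12 and 0.00. Groups did not overlap for 14 and 13 of the 16 probe sets, against 74.5% and 50.5% of all. Centring arrays on the hybridisation controls gave the C57BL/6J line 6 higher and 5 lower and left the tsA58 split at 3 higher and 9 lower. It moved the median of all probe sets by 1.23 and 0.60 in these comparisons.

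**Figure D1:**
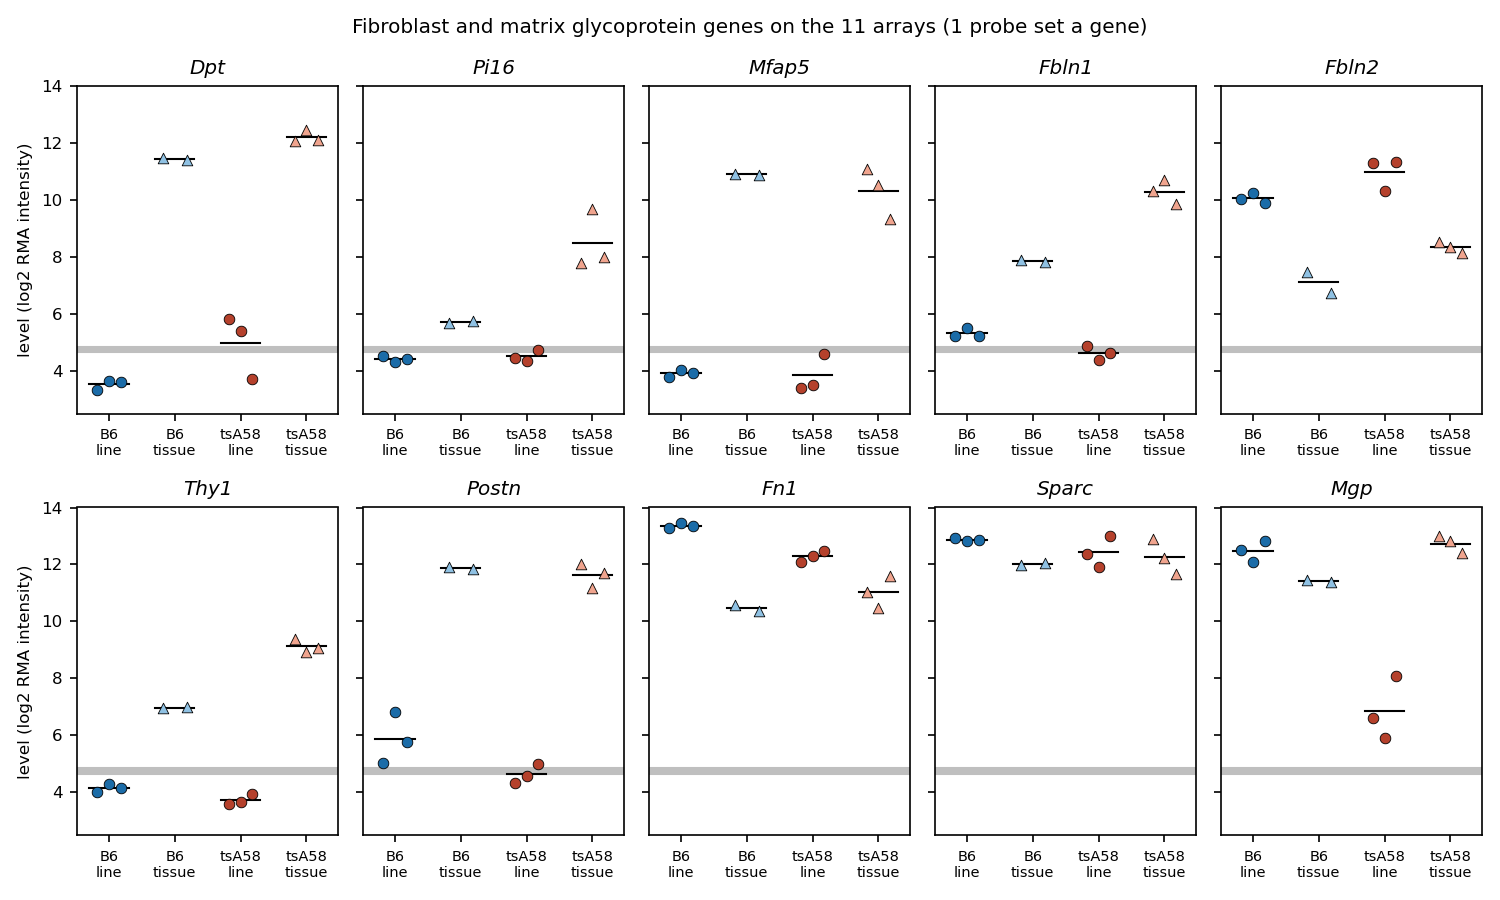
Levels (log2 RMA intensity) of the 10 genes on the 11 arrays, 1 probe set a gene, circles for lines and triangles for tissues; short bars are group means and the grey band is the range of array medians. Dpt, Mfap5, Postn, Fbln1, Thy1 and Pi16 are lower in both lines than in tissue, Fbln2 and Fn1 are higher, and Mgp is low in the tsA58 line alone.

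Dermatopontin was low in both lines and high in both tissues. Dpt read 3.32, 3.64 and 3.60 in the C57BL/6J line and 11.47 and 11.39 in its tissue. In the tsA58 line it read 5.82, 5.41 and 3.71, and in that tissue 12.09, 12.44 and 12.10. Every line array was thus more than 5 log2 units below every tissue array, and replicate 3 of the tsA58 line was at the level of the C57BL/6J line. Line minus tissue was -7.91 ± 0.48 (SE, limma adjusted p = 9.09e-07) for C57BL/6J and -7.23 ± 0.43 (adjusted p = 4.02e-07) for tsA58, or -6.59 without tsA58 line replicate 3.

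Mfap5, the microfibril protein, was measured by 2 probe sets with the same pattern. On 1418454_at it read 3.77, 4.04 and 3.94 in the C57BL/6J line, 10.90 and 10.89 in its tissue, 3.41, 3.51 and 4.59 in the tsA58 line, and 11.09, 10.53 and 9.32 in that tissue. All line arrays lay below the array medians and all tissue arrays well above them. The differences were -6.97 ± 0.47 (limma adjusted p = 1.83e-06) and -6.48 ± 0.42 (adjusted p = 7.87e-07). The second probe set, 1449082_at, gave -4.96 ± 0.65 and -4.26 ± 0.58.

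Periostin, which binds collagen and is made by activated fibroblasts, read 5.03, 6.81 and 5.76 in the C57BL/6J line against 11.92 and 11.85 in tissue. The tsA58 line read 4.34, 4.58 and 5.00 against 12.01, 11.17 and 11.69. The lines did not overlap the tissues, and C57BL/6J line replicate 2 was the highest line array. Line minus tissue was -6.02 ± 0.44 (limma adjusted p = 3.07e-06) and -6.98 ± 0.39 (adjusted p = 2.71e-07).

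Fbln1, Thy1 and Pi16 were low in both lines, but their levels differed between the tissues. Fbln1 on 1451119_a_at read 5.21, 5.52 and 5.23 in the C57BL/6J line and 7.88 and 7.83 in its tissue. It read 4.87, 4.38 and 4.62 in the tsA58 line and 10.32, 10.72 and 9.84 in that tissue. The lines were near background and the tissues clearly apart from them and from each other. The differences were -2.53 ± 0.26 (limma adjusted p = 2.81e-05) and -5.67 ± 0.23 (adjusted p = 2.41e-08). Probe set 1422540_at of Fbln1 was 4-fold lower in the C57BL/6J line (SE 0.43 on the log2 scale) and gave -4.08 ± 0.38 in the tsA58 line. The remaining one, 1439688_at, was flat, with group means of 5.01 to 5.44, and was called in no comparison. With arrays centred on hybridisation controls, the C57BL/6J differences of the first 2 were -1.30 and -0.77, no longer called.

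Thy1 read 4.01, 4.30 and 4.14 in the C57BL/6J line against 6.95 and 6.99 in tissue, and 3.57, 3.65 and 3.93 in the tsA58 line against 9.38, 8.91 and 9.08. All line arrays lay below the array medians. Line minus tissue was -2.82 ± 0.20 (limma adjusted p = 2.83e-06) and -5.40 ± 0.18 (adjusted p = 6.33e-09).

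Pi16 on 1453839_a_at read 4.51, 4.30 and 4.43 in the C57BL/6J line against 5.67 and 5.74 in tissue. The tsA58 line read 4.46, 4.34 and 4.73 against 7.78, 9.68 and 7.996, with tissue replicate 2 well above the others. The tsA58 difference was -3.97 ± 0.40 (limma adjusted p = 2.25e-05). The C57BL/6J difference, -1.29 ± 0.45 (adjusted p = 0.0355), was small and fragile. It was not called without any single C57BL/6J array: -1.34, -1.24 and -1.30 without line replicates 1, 2 and 3, and -1.33 and -1.25 without tissue replicates 1 and 2 (adjusted p 0.0674 to 0.141). With no filter on low values its adjusted p was 0.0524, and centring on the hybridisation controls took the difference to -0.06.

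In bulk RNA, fewer cells of a type and less RNA per cell cannot be told apart. Marker lists of other cell types of the stomach wall moved with the genes above. Enteric neuron genes were lower in both lines (7 of 7 tested). Smooth muscle genes were lower in 6 of 8 in the C57BL/6J line and 8 of 8 in the tsA58 line. The macrophage and leukocyte list had 7 of 8 lower in each, but Cd68 was higher in the C57BL/6J line (7.92 against 5.87 in tissue). Not every list was lower. Of 6 mesothelium genes, 0 were lower and 1 higher in the C57BL/6J line, and 2 were lower in the tsA58 line, with medians of 1.26 and -1.57. The list averaged 10.16 to 10.81 on the C57BL/6J line arrays and 9.165 to 9.32 in that tissue. All groups share 1 estimate of the spread, and this list ran from 6.64 to 10.24 on the tsA58 line arrays, which limits the calls in both comparisons. T cell genes were called in 0 of 3 in both. The smooth muscle list averaged 5.42 to 6.93 on the line arrays and 11.50 to 12.94 in tissue, and the neuron list 3.46 to 4.66 and 8.56 to 9.49. Of 8 neuron genes, 3 in the C57BL/6J line and 1 in the tsA58 line were above the array median on all its arrays. Snap25 averaged 7.93 and 2.83 in these lines, and Uchl1 7.92 and 4.60. On the scale of the hybridisation controls, 4 of 7 neuron, 5 of 8 smooth muscle and 6 of 8 leukocyte genes were lower in the C57BL/6J line. The part of these cell types in the differences was not tested.

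Fibronectin ran the other way. Fn1 on 1426642_at read 13.27, 13.46 and 13.35 in the C57BL/6J line against 10.58 and 10.35 in tissue. The tsA58 line read 12.08, 12.31 and 12.48 against 11.04, 10.48 and 11.59. Each line lay above its tissue with no overlap, by 2.89 ± 0.29 (limma adjusted p = 2.18e-05) and by 1.25 ± 0.26 (adjusted p = 0.00247). Without tsA58 tissue replicate 2, the lowest of its group, the tsA58 difference was 0.98, short of 2-fold. The second probe set, 1437218_at, was higher by 3.08 ± 0.51 and 2.84 ± 0.46. Its levels were 9.39, 9.25 and 9.39 against 6.34 and 6.18, and 8.14, 8.48 and 8.86 against 6.88, 4.55 and 5.53.

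Fibulin 2, a binding partner of fibronectin that is found in basement membranes and around elastic fibres, was higher in both lines. Fbln2 on 1423407_a_at read 10.04, 10.23 and 9.90 in the C57BL/6J line against 7.49 and 6.72 in tissue. Readings of the tsA58 line were 11.29, 10.33 and 11.34 against 8.54, 8.35 and 8.12. The lines did not overlap the tissues, and the differences were 2.95 ± 0.33 (limma adjusted p = 4.89e-05) and 2.65 ± 0.29 (adjusted p = 4.57e-05). Fbln1 and Fbln2, 2 members of the same family, thus differed in opposite directions in both strains, by their probe sets of highest mean and under each scaling tried.

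Sparc was high everywhere and called in no comparison. On 1416589_at it read 12.94, 12.81 and 12.85 in the C57BL/6J line, 11.99 and 12.06 in its tissue, 12.37, 11.90 and 13.00 in the tsA58 line, and 12.90, 12.22 and 11.67 in that tissue. The C57BL/6J groups did not overlap and the tsA58 groups did. Line minus tissue was 0.84 ± 0.36 (limma adjusted p = 0.0823) and 0.16 ± 0.32 (adjusted p = 0.723). On 1448392_at the differences were 0.44 ± 0.45 and 0.01 ± 0.40, and on the dim 1458204_at, with group means of 5.63 to 5.98, they were 0.16 ± 0.25 and 0.35 ± 0.22.

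Matrix Gla protein separated the lines from each other. Mgp read 12.49, 12.09 and 12.82 in the C57BL/6J line and 11.45 and 11.39 in its tissue. It read 6.63, 5.91 and 8.07 in the tsA58 line and 12.99, 12.81 and 12.39 in that tissue. The C57BL/6J line lay above its tissue without overlap, but the difference of 1.05 ± 0.50 was not called (limma adjusted p = 0.109). In the tsA58 line the level fell by 5.86 ± 0.45 (adjusted p = 2.66e-06), to a level still above the array median. Without tsA58 line replicate 3, whose Mgp was the highest of that line, the tsA58 difference was -6.47, and the C57BL/6J difference, unmoved at 1.05, was called (adjusted p = 0.0112).

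**Figure D2:**
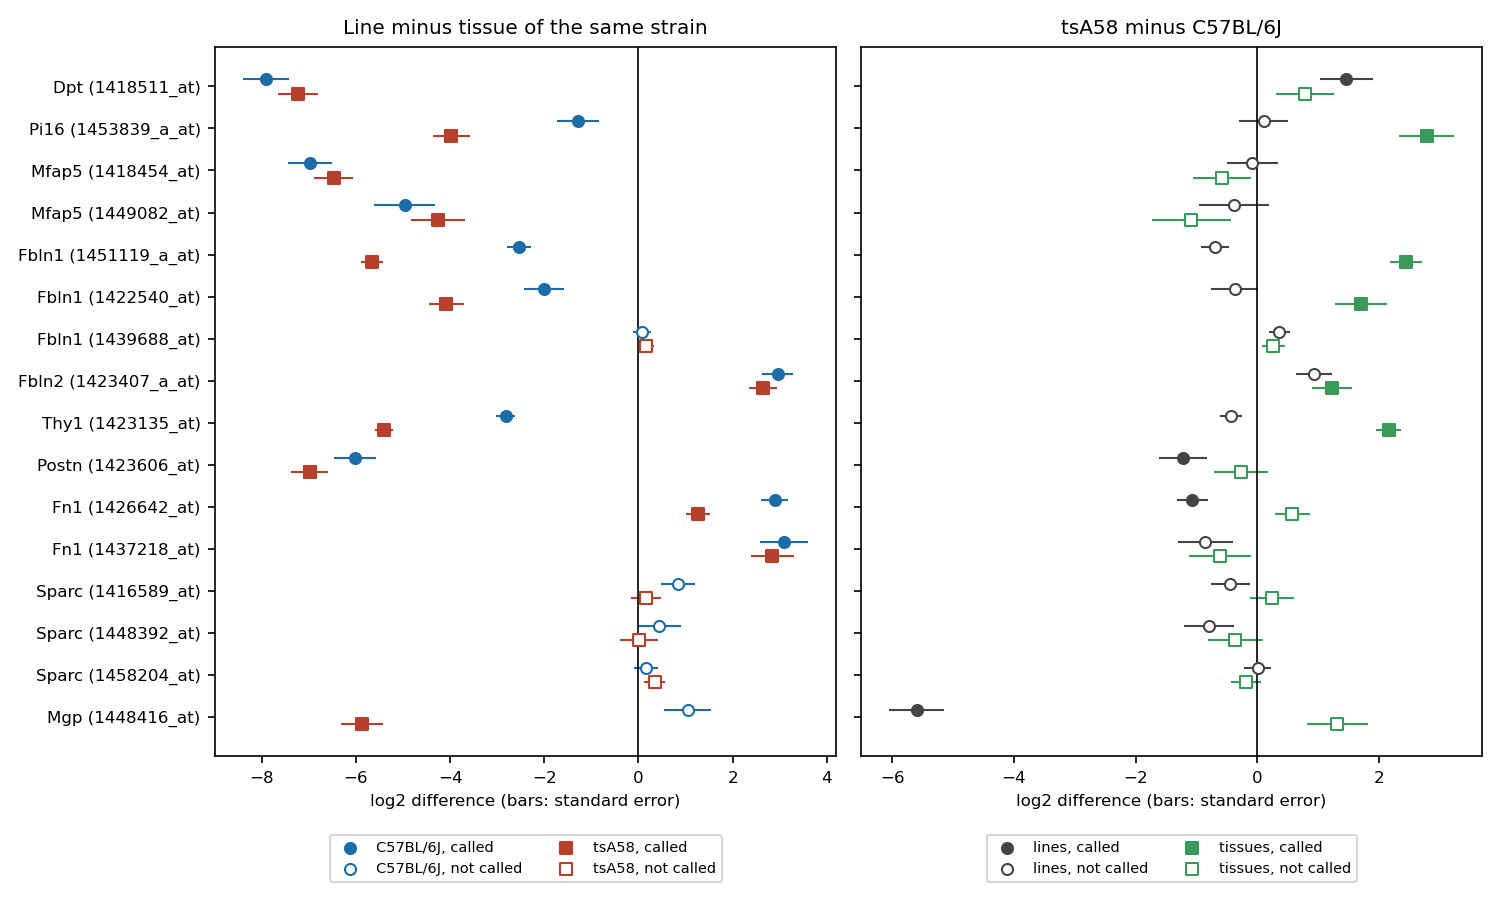
Log2 differences with standard errors for the 16 tested probe sets: line minus tissue in each strain on the left, tsA58 minus C57BL/6J for lines and for tissues on the right; filled symbols were called. The line-tissue differences run from -7.91 (Dpt) to 3.08 (Fn1), and the strain differences from -5.60 (Mgp, lines) to 2.78 (Pi16, tissues); centring on hybridisation controls turns the signs of the called Postn and Fn1 between lines, and of Mfap5, Thy1 and some probe sets of Fbln1, Fn1 and Sparc that were not called.

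Between the lines Mgp stood out. Of 16 probe sets, 4 were called in the tsA58 line against the C57BL/6J line, 1 higher and 3 lower, where 14.2% of all were called (8.71% higher and 5.52% lower). The median over the 10 genes was -0.44, against -0.04 over all genes. Groups did not overlap for 10 of the 16, against 39.5% of all. The split was 2 higher and 2 lower after quantile normalisation, and 6 higher and 1 lower after centring on hybridisation controls.

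Mgp was lower in the tsA58 line by 5.60 ± 0.45 on the log2 scale, a level 48.5-fold below that of the C57BL/6J line (limma adjusted p = 2.16e-05). Leaving out tsA58 line replicate 3 gave -6.20, and Mgp was called lower under every alternative tried. Mesothelium genes were lower in the same comparison in 4 of 6, with a median of -2.53 (1 of 6 and -1.04 on the scale of the hybridisation controls). In the tsA58 line array with the highest Mgp, replicate 3, their mean was also highest. That mean, 10.24, lay within the 10.16 to 10.81 of the C57BL/6J line, while Mgp was 8.07 there against 12.09 to 12.82. The part of these cells' genes in the Mgp difference was not tested.

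**Figure D3:**
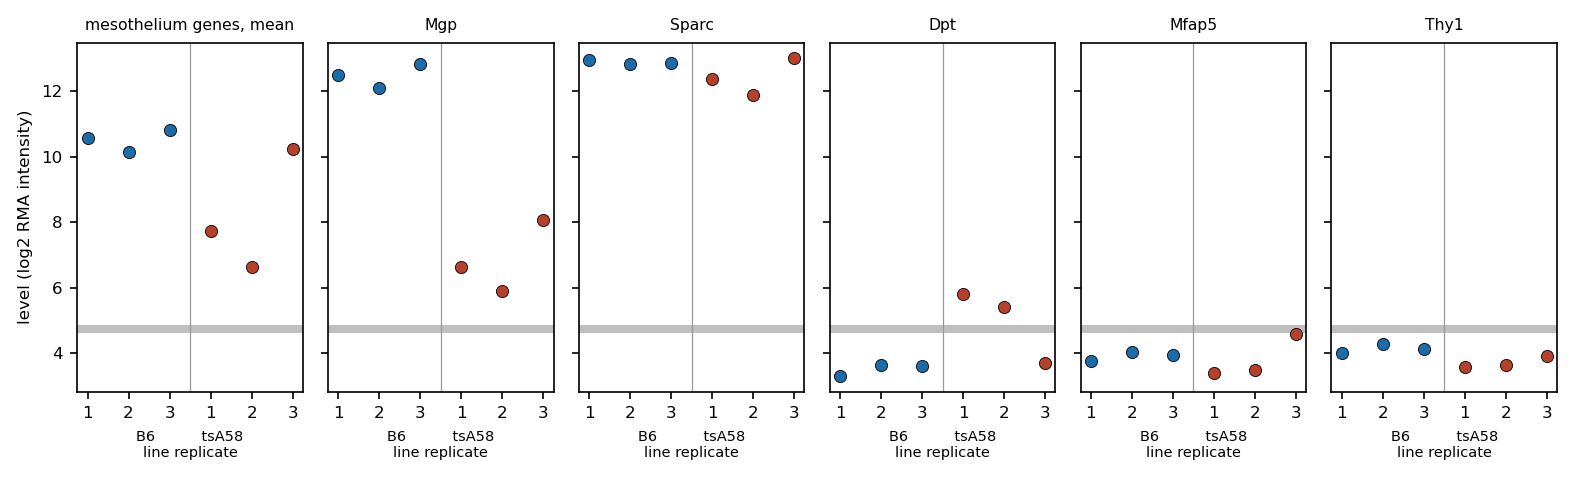
Levels (log2 RMA intensity) on the 3 arrays of each line: the mean of 6 mesothelium genes, then Mgp, Sparc, Dpt, Mfap5 and Thy1; the grey band is the range of array medians. Replicate 3 of the tsA58 line has the highest values of that line for the mesothelium genes (10.24) and Mgp (8.07) and the lowest for Dpt (3.71).

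The other calls between lines were small and were lost without single arrays or under other settings. Dpt was higher in the tsA58 line by 1.46 ± 0.43 (limma adjusted p = 0.033). It was 2.10 higher without tsA58 line replicate 3 (adjusted p = 6.83e-05). It was not called without C57BL/6J line replicate 1, 2 or 3 (1.36, 1.52, 1.502), C57BL/6J tissue replicate 1 or 2 (1.46), or tsA58 line replicate 1 or 2 (1.04, 1.25), at adjusted p 0.0507 to 0.123. Since all C57BL/6J line arrays were below the array median, the size of this difference is a bound.

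Postn was lower in the tsA58 line by 1.23 ± 0.39 on the log2 scale (limma adjusted p = 0.0466), with no overlap, the nearest arrays being at 5.00 and 5.03. Its call was lost without C57BL/6J line replicate 2 (-0.75) or 3 (-1.28), C57BL/6J tissue replicate 1 or 2 (-1.23), tsA58 line replicate 1 (-1.07) or 2 (-1.19), or tsA58 tissue replicate 3 (-1.23), at adjusted p 0.0612 to 0.149. Centring on the hybridisation controls turned it to 0.26. Fn1 on 1426642_at was lower by 1.07 ± 0.26 (adjusted p = 0.0134), or -0.96 without tsA58 line replicate 1 (adjusted p = 0.0565), and 0.42 after that centring. Quantile normalisation (-0.91) and cyclic loess (-0.94) left it short of 2-fold. On 1437218_at Fn1 gave -0.85 ± 0.46, which was not called.

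Thy1, Fbln1, Mfap5, Pi16 and Sparc were not called between lines. Fbln2 was 0.93 ± 0.29 higher in the tsA58 line (limma adjusted p = 0.0438), short of 2-fold, and 1.26 without tsA58 line replicate 2, the lowest of that line. Sparc on 1448392_at gave -0.80 ± 0.40, and -1.20 (adjusted p = 0.0308) without tsA58 line replicate 3.

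Between the tissues, Pi16, Fbln1, Thy1 and Fbln2 were higher in the H-2Kb-tsA58 stomach, and the other 6 genes were not called. Of 16 probe sets, 5 were called and all 5 were higher, where 15.9% of all were called (9.83% higher and 6.04% lower). The median over the 10 genes was 1.01, against 0.18 over all genes, and groups did not overlap for 8 of 16, against 55.5% of all. After centring on hybridisation controls, 15 were called higher, with the median of all probe sets itself moved by 2.13.

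Pi16 was 2.78 ± 0.45 higher (limma adjusted p = 0.00198), and all 3 tsA58 arrays exceeded both C57BL/6J arrays by over 2 log2 units. Fbln1 was 2.44 ± 0.26 higher on 1451119_a_at (adjusted p = 0.000235). On 1422540_at it was 1.70 ± 0.43 higher (adjusted p = 0.0161), from levels of 5.91 and 6.04 to 7.51, 8.72 and 6.79, and this call was lost without C57BL/6J tissue replicate 1 (1.64) or 2 (1.77). Thy1 was 2.16 ± 0.20 higher (adjusted p = 0.000139). Fbln2 was 1.23 ± 0.33 higher (adjusted p = 0.0212), but 0.85 without C57BL/6J tissue replicate 2 and 1.13 without tsA58 tissue replicate 1, neither of which was called. It was also not called after quantile normalisation (1.02, adjusted p = 0.0664), cyclic loess (1.04, adjusted p = 0.0675) or with the log2 ratio of the 3′ to the 5′ beta-actin control probe set, a measure of RNA integrity and amplification, as a covariate (0.78, adjusted p = 0.195).

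Dpt, Postn, Mfap5, Fn1, Sparc and Mgp were not called between tissues. Dpt was 0.78 ± 0.48 higher with no overlap. Mgp was 1.31 ± 0.50 higher with no overlap (limma adjusted p = 0.081), and was called at the same difference when an array of the tsA58 line was left out, at adjusted p = 0.0364 for replicate 2 and 0.00756 for replicate 3. Postn, at -0.26 ± 0.44, overlapped. Without tsA58 tissue replicate 1, Mfap5 on 1449082_at (-1.80, against -1.08 ± 0.65 with all arrays) and Fn1 on 1437218_at (-1.22, against -0.61 ± 0.51) were called lower.

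Some marker lists of other cell types differed between the tissues too, where 9.79% of all genes were higher. Smooth muscle genes were higher in tsA58 tissue in 3 of 8 (list mean 12.60 to 12.94 against 11.50 to 11.62). Endothelium genes were higher in 3 of 7 (6.34 to 7.28 against 5.65 to 5.82), and macrophage and leukocyte genes in 3 of 8 (7.99 to 9.29 against 7.39 to 7.40). Adipocyte genes were higher in 1 of 3 tested (6.32 to 9.16 against 6.25 to 6.35). Of cells known to carry Thy1, neuron genes were called in 0 of 7 (8.56 to 9.49 against 8.72 to 8.89) and T cell genes in 0 of 3 (4.60 to 5.05 against 4.78 to 4.92, close to the array median). After centring on hybridisation controls, all tested genes of these lists were called higher in tsA58 tissue: 8 of 8 smooth muscle, 7 of 7 endothelium, 8 of 8 leukocyte, 3 of 3 adipocyte, 7 of 7 neuron and 3 of 3 T cell genes. The part of these lists in the strain difference was not tested.

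The line-tissue difference itself differed between strains for 6 of 16 probe sets, all more negative in tsA58, where 22.3% of all were called (10% higher and 12.3% lower). Of the 10 genes 0 were higher and 5 lower, against 7.54% and 13.2% of all genes. They were Mgp (-6.91 ± 0.67, limma adjusted p = 0.000184), Fbln1 (-3.13 ± 0.35, adjusted p = 0.000362, and -2.08 ± 0.57, adjusted p = 0.0239), Pi16 (-2.68 ± 0.60, adjusted p = 0.00962), Thy1 (-2.59 ± 0.27, adjusted p = 0.000274) and Fn1 (-1.64 ± 0.38, adjusted p = 0.0117). For Fbln1, Thy1 and Pi16 the strains differed in tissue level, with both lines near or below the array median, where a lower level could not be read. For Mgp the tissue difference of 1.31 was not called, and the line difference was -5.60.

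The call of Fbln1 on 1422540_at was lost without C57BL/6J line replicate 1 (-1.97), C57BL/6J tissue replicate 1 (-2.01) or 2 (-2.14), or tsA58 line replicate 1 (-2.002). That of Fn1 was lost without C57BL/6J tissue replicate 2 (-1.53), and on 1437218_at the Fn1 difference was -0.25 ± 0.68. Without tsA58 line replicate 3 a seventh probe set was called, that of Dpt, at 1.32 (adjusted p = 0.00601), against 0.68 ± 0.65 with all arrays.

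The other genes of the matrix were read from lists, each gene by 1 probe set. Of 23 fibroblast identity genes tested, 10 were lower and 0 higher in the C57BL/6J line, and 12 lower and 0 higher in the tsA58 line, with medians of -1.03 and -1.80, but 3 and 3, and 10 and 0, when centred on hybridisation controls (the control scale). Over all genes 17.5% were higher and 16.6% lower in the first comparison, and 12.8% and 18.9% in the second. Many of the 23 were still well detected in the lines. In the C57BL/6J line 16, and in the tsA58 line 17, were above the array median on all arrays of the line, against 23 in each tissue. Tcf21, a transcription factor of mesenchymal and stromal cells, was lowest in both (-6.25 ± 0.21 and -6.63 ± 0.18). Fap, the fibroblast activation protease, was lower in both (-3.69 ± 0.50 and -3.22 ± 0.44), as was Dpp4, its relative on Pi16-positive fibroblasts (-2.66 ± 0.35 and -5.05 ± 0.32).

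More elastic fibre genes were called lower than higher in the lines. Of 21 tested, 8 were lower and 4 higher in the C57BL/6J line, and 11 lower and 2 higher in the tsA58 line, with medians of -1.11 and -1.36, but 2 and 5, and 7 and 2, on the control scale. Elastin, Eln, was lower in both (-5.65 ± 0.76 and -4.80 ± 0.68), as was Mfap4 (-3.79 ± 0.54 and -4.34 ± 0.48). The lysyl oxidase Loxl3 was higher in both (2.44 ± 0.47 and 1.62 ± 0.42). Between the lines 6 were lower and 3 higher in tsA58 (1 and 8 on the control scale), with the latent TGF-beta binding protein Ltbp2 lowest (-4.12 ± 0.24). Over all genes 8.42% were higher and 5.82% lower between the lines.

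Of 31 matricellular and adhesive glycoproteins, 15 were lower and 7 higher in the C57BL/6J line, and 20 lower and 3 higher in the tsA58 line, with medians of -0.98 and -1.74, but 10 and 10, and 14 and 3, on the control scale. Sparcl1, the closest relative of Sparc, was lower in both, at -8.40 ± 0.19 and -8.90 ± 0.17, while Sparc was not called in either. Tgfbi, a relative of periostin, was lower in both (-7.32 ± 0.19 and -6.26 ± 0.17), as was Smoc2, of the Sparc family (-6.00 ± 0.19 and -6.32 ± 0.17). The Wnt-induced Ccn4 was higher in both (3.59 ± 0.46 and 3.42 ± 0.41). Between lines 4 were lower and 0 higher in tsA58 (2 and 12 on the control scale), led by versican, Vcan (-5.05 ± 0.45), and the basement membrane protein Nid1 (-3.61 ± 0.39).

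**Figure D4:**
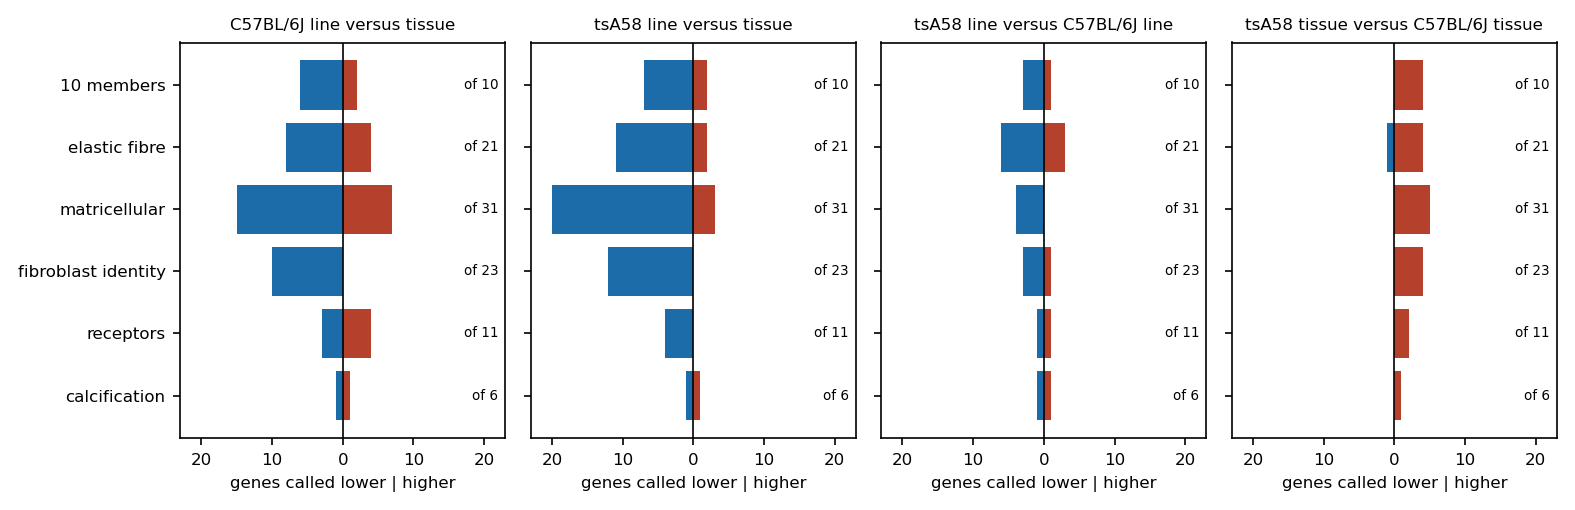
Genes called lower (blue, left) and higher (red, right) of those tested in the 10 genes described here and in 5 lists of matrix and fibroblast genes, for 4 comparisons. In both line-tissue comparisons fibroblast identity genes are called lower alone (10 and 12 of 23; 3 lower and 3 higher in C57BL/6J on the control scale), and between tissues 0 of 23 are lower and 4 higher.

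The list of fibronectin and periostin receptors held integrin subunits, syndecans and Ddr1. Of its 11 genes tested, 4 were higher and 3 lower in the C57BL/6J line. The tsA58 line had 0 higher and 4 lower. On the control scale the counts were 7 and 1, and 0 and 1. The alpha subunit Itga5 of the classical fibronectin receptor was higher in the C57BL/6J line (2.34 ± 0.56), as was Itgb5 (1.76 ± 0.24). Itga8 was lower in both lines (-4.70 ± 0.31 and -5.21 ± 0.28). Among 6 tested genes of calcification control and the vitamin K cycle, which activates Mgp, Ggcx, the carboxylase, was 2.06 ± 0.29 and 1.16 ± 0.26 higher. The tsA58 value fell short of 2-fold without tsA58 line replicate 3 (0.94) or tsA58 tissue replicate 3 (0.98). Ggcx averaged 6.38 and 5.17 in the lines. Its tissue means, 4.32 and 4.01, lay below the array median, so these differences are bounds. Gas6, another vitamin K-dependent protein, was -4.93 ± 0.27 and -2.34 ± 0.24, and 4.41 ± 0.24 higher in the tsA58 line than in the C57BL/6J line, opposite in sign to Mgp.

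Between the tissues 4 of 23 fibroblast identity genes were higher in tsA58 and 0 lower (21 and 0 on the control scale), where 9.79% of all genes were higher and 3.37% lower. Entpd2, an ectonucleotidase, was 1.47 ± 0.30 higher, but was not called without C57BL/6J tissue replicate 1 (1.30). Of the elastic fibre genes 4 were higher and 1 lower (17 and 0 on the control scale), with Ltbp4 at 2.10 ± 0.38 and Emilin2 at 1.88 ± 0.33. Of the matricellular genes 5 were higher and 0 lower (27 and 0 on the control scale, 4 and 1 after quantile normalisation), with Ecm1 at 2.03 ± 0.35.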

How the data were processed

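Total RNA (about 50 ng a sample, per the labels' protocols) was amplified in 2 rounds and hybridised to Affymetrix mouse genome arrays, 1 array a sample. The deposited values are log2 intensities, which the authors made with RMA per the submitters' processing notes, in a version not given in the sources used. RMA gives arrays a common intensity distribution, so differences are relative to the bulk of transcripts, and the number of arrays limits the precision. Genes were named from GEO's platform annotation, by single symbols only (34945 probe sets).

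Samples were grouped from their titles. Probe sets above the array median on at least 2 arrays (26903) were fitted with limma 3.58.1 in R 4.3.3, with 4 group means over all 11 arrays (7 residual and 3.71 prior degrees of freedom), Benjamini-Hochberg adjustment over all of them, and calls at adjusted p below 0.05 and at least 2-fold. The fit was tested on simulated data. A gene stands for its probe set with the highest mean. The 10 genes and the lists (199 further entries, 169 tested, in 19 lists) were chosen with earlier results of these data known. Of each list, at most 3 called genes at either end of a line-tissue comparison, and 2 between lines or tissues, could be named. Alternatives covered filters, normalisation, the variance model, covariates, the replicate block and each array left out. Promoters came from RefSeq (GRCm38.p6), and plots were made with matplotlib 3.10.9 in Python 3.11.15.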

Additional observations from a re-analysis of the deposited data

Results flagged for a closer look

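For 5 genes the change from tissue to line differed between the strains in the limma test of that difference itself, tsA58 minus C57BL/6J, on 6 probe sets. Mgp differed most, at -6.91, with every tsA58 line array below its tissue and every C57BL/6J line array above its own. Fbln1 gave -3.13 on 1451119_a_at and -2.08 on 1422540_at, Pi16 -2.68 on 1453839_a_at, Thy1 -2.59 on 1423135_at and Fn1 -1.64 on 1426642_at. For Fbln1, Pi16 and Thy1 the higher tissue level in tsA58 carries the difference arithmetically, by 2.44, 2.78 and 2.16 on the probe sets of highest mean. For Mgp the lines carry it, by -5.60. Adjusted p-values of this limma test over the alternatives ran up to 0.00212 for Mgp, 0.0437 for Pi16 and 0.0183 for Thy1. For Fbln1 they ran up to 0.00349 on 1451119_a_at and 0.0871 on 1422540_at, and for Fn1 up to 0.154. The last 2 probe sets lost the call under some alternatives.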

How the results depend on the processing

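Of 38 called results on the 10 genes, 27 kept their direction and call under all alternatives and 11 lost the call under some, among which Postn and Fn1 between the lines also turned sign. Of 65 named results on other list genes, 43 kept theirs. Between the lines, 4 probe sets were called, but 2 with no filter, 2 with only the groups compared, 7 when centred on the hybridisation controls, and 1 to 5 with an array left out. Between tissues, 5 were called, but 15 with that centring and 3 to 6 with an array left out. The labels do not say whether equal replicate numbers pair these arrays. Of 15 same-numbered pairs, 1 had deviations from the group means correlated above 0.1 (range -0.16 to 0.22). With 2 or 3 arrays a group this cannot exclude pairing. The replicate block gave counts of 10, 12, 3, 5 and 6 (main 11, 12, 4, 5 and 6) and ended the calls of Pi16 in the C57BL/6J line (-1.25, adjusted p = 0.0614) and Postn between lines (-1.23, adjusted p = 0.0711). Array quality weights were fitted without full convergence, so their small p-values are not used.

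Centring on the hybridisation controls moved the median of all probe sets by 1.23, 0.60, 1.49, 2.13 and -0.64 in the 5 comparisons. It turned signs between lines to 1.41 and 1.11 (Mfap5), 0.79 and 1.11 (Fbln1), 1.06 (Thy1), 0.26 (Postn), 0.42 and 0.63 (Fn1), 1.04 and 0.69 (Sparc) and 0.28 (Ggcx). Between tissues it gave 1.55 and 1.04 (Mfap5), 1.86 (Postn), 1.52 (Fn1 1437218_at), 1.76 and 1.94 (Sparc 1448392_at and 1458204_at). The strain differences of line-tissue differences became -0.14 (Mfap5), -0.54 (Fbln1 1439688_at) and -0.45 (Sparc 1458204_at), and Itga4 in the C57BL/6J line 0.14. Over all probe sets, 4793 higher and 4375 lower in the C57BL/6J line became 10930 and 1241 with it and 3412 and 5268 with cyclic loess. In the tsA58 line 3919 and 4273 became 4247 and 1872. Between lines 2342 and 1486 became 16140 and 180. Between tissues 2645 and 1625 became 23701 and 46, 2066 and 2007 with quantile normalisation, and 1922 and 1831 with loess. For the difference of differences 2689 and 3318 became 322 and 904. The cause was not tested.

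Other results that turned sign were never called. Cyclic loess gave -0.0711 for Fbln1 1439688_at and -0.0668 for Sparc 1458204_at in the C57BL/6J line, and -0.0111 for the latter between lines, where quantile normalisation gave -0.0797, array weights -0.21 and the actin ratio covariate -0.44. Array weights gave -0.0184 for its difference of differences. The actin covariate gave -0.20 for Pi16 between lines and -0.36 for Sparc 1416589_at between tissues. With an array left out, values between lines ranged from -0.0094 to 0.19 (Pi16), -0.46 to 0.13 (Mfap5 1418454_at) and -0.18 to 0.14 (Sparc 1458204_at). In the C57BL/6J line Fbln1 1439688_at ranged from -0.0785 to 0.22, in the tsA58 line Sparc from -0.14 to 0.48 and -0.39 to 0.39, and between tissues Sparc 1416589_at from -0.0848 to 0.53. Differences of differences ranged from -0.0567 to 1.42 (Mfap5 1449082_at), -0.0474 to 0.25 (Fbln1 1439688_at), -0.69 to 0.0801 (Fbln2), -0.80 to 0.37 (Fn1 1437218_at) and -5e-04 to 0.32 (Sparc 1458204_at).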

Other observations

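After each gene was centred on its own mean over the 11 arrays, Fbln1 and Thy1 lay closest together (root mean square difference 0.31 log2 units), followed by Mfap5 and Postn (0.70), and Dpt and Fbln2 lay farthest apart (5.19). Among all tested genes the nearest to Dpt were Synm (0.74) and Aspn (0.75), a collagen-binding proteoglycan. The nearest to Postn were Sorbs2 (0.49) and Pln (0.56), and to Thy1 the muscle creatine kinase Ckm (0.21) and Ppp1r14a (0.23). Pi16 was nearest to the antigen-presentation gene H2-Ab1 (0.36) and to Chga (0.41), Mfap5 to Itih5 (0.43) and the gastric trefoil gene Tff2 (0.44), and Fbln1 to Pcp4l1 (0.30) and then Thy1. Mgp was nearest to Gpm6a (0.57) and Clmp (0.67), Fbln2 to Eno3 (0.35) and Def6 (0.36), Fn1 to Polr1a (0.30) and Slc25a28 (0.31), and Sparc to Ticam1 (0.19) and Mospd3 (0.23). These are descriptions over 11 arrays in 4 groups.

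Other marker lists were read beside the genes above. Pericyte genes were lower in 4 of 6 in the C57BL/6J line and 5 of 6 in the tsA58 line, and enteric glia genes in 3 of 4 in each. Gastric epithelium genes were lower in 6 and 7 of 8, and endothelium genes in 5 and 7 of 7, where 16.6% and 18.9% of all genes were lower. Of 4 genes of interstitial cells of Cajal, 3 and 4 were lower. Of 5 progenitor genes the C57BL/6J line had 1 higher and 2 lower, and the tsA58 line 1 of each. Adipocyte genes were lower in 2 and 3 of 3, and exocrine pancreas genes in 1 of 5 in each. Of 3 tested chondrocyte and bone genes, whose kind of tissue Mgp is known to be made in, 2 were lower in the tsA58 line than in the C57BL/6J line. Over all genes 5.82% were lower there. The 2 were Sox9 (5.33 against 7.20) and Sp7 (5.71 against 6.96). Col2a1 averaged 5.02 and 5.17. The matrix genes Acan, Col10a1 and Ibsp averaged 3.26 to 4.30 in the lines, below the array median. Centring on hybridisation controls left 3 and 3 pericyte, 6 and 7 epithelium, 1 and 5 endothelium and 2 and 4 Cajal cell genes lower. It gave 1 glia gene lower and 1 higher in the C57BL/6J line and 2 lower in the tsA58 line, 1 progenitor gene each way in both, 4 and 1 pancreas genes lower, 2 and 3 adipocyte genes lower, and 0 of the 3 chondrocyte and bone genes between lines.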
